A study of Mus musculus with 18 samples.

Results

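Gene desert peaks were defined here as ATAC-seq peaks on chromosomes 1 to 19 whose middle lies more than 200000 bp from the start of every protein-coding gene. ATAC-seq marks open chromatin by the reads that a transposase leaves there. The rule used only positions on GRCm38 and found 10697 of the 111664 peaks in the deposited set. They were counted in 9 libraries of cells from a mouse model of small cell lung cancer (SCLC), with 3 libraries per genotype. For the genes that flank them, 9 RNA-seq libraries of the same design were used. Mice of every genotype carried conditional alleles that the labels write as Rb1L/L; Rbl1L/L; p53L/L, whereas the main text of the study names Rbl2. Adenovirus carrying Cre was given to the lungs at 8 weeks of age, and cells were collected 28 weeks later. By the methods, mice of every genotype also carried tdTomato, a reporter that Cre switches on, and had a mixed strain background. TKO mice carried no change in Carm1 or Nfib, and TKO;Carm1 mice also carried Carm1L/L (CARM1 knockout). TKO;NfibR388K mice carried an Nfib allele in which the arginine that CARM1 methylates is a lysine (NFIB mutant). The Carm1 deletion is thus limited to cells that received Cre, while the Nfib change is in the germline and hence also in the host's normal cells. The labels give 3 independent animals per genotype, and whether primary tumor or cultured cells were sequenced could not be settled from the study's text. Carm1 RNA over the whole gene was at 97.7, 103 and 44.5 CPM in TKO and 63.4, 79.1 and 50.8 CPM in the libraries labelled CARM1 knockout, and the groups overlapped (edgeR adjusted p = 0.410). CPM are counts scaled to the library's total, after that total was multiplied by a factor (TMM) that adjusts for differences in composition. Since gene counts do not resolve the deleted exons, they gave no check of that label. The count columns are headed C, KO and N, and were read as control (TKO), CARM1 knockout and NFIB mutant after the group names of the study. The letters alone would also allow C for Carm1 and KO for TKO, which would exchange the names of these genotypes in every value below. The study reports almost no difference in accessibility between its CARM1 knockout and NFIB mutant tumors. With calls as defined below, 0% of all tested peaks were called between columns KO and N. Against C, 38.7% were called higher and 32.4% lower in KO, and 39.3 and 34% in N.

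Regions far from gene starts often hold enhancers, short sequences where transcription factors bind and act on promoters over long distances. Genes that direct development commonly sit at the edges of wide stretches without other genes, and enhancers in such a stretch are typically used in one tissue and closed in another. SCLC cells are neuroendocrine, which means that they use neuronal and secretory genes. NFIB is a transcription factor that opens chromatin in this tumor, and CARM1 is an enzyme that methylates arginines.

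The sequences below belong to 3 of the peaks with the largest rises and 3 with the largest falls in both mutants, and are shown because the genotype differences turn on such peaks. Each holds 300 bases around the peak's middle, on the + strand of GRCm38, and is named for the genes on either side. Capitals mark matches to short motifs on either strand, namely TGANTCA of the AP-1 factors, CAGCTG or CAGATG of the E-box class that neural bHLH factors bind, TGTTTAC of forkhead factors and ACAATGG of SOX factors. Tox-Car8 is chr4:7688664-7688963, between genes. Gli3-Inhba is chr13:15806863-15807162, between genes. Lrrc4c-Gm10801 is chr2:97434198-97434497, with its middle in an intron of Lrrc4c. Dhx35-Gm826 is chr2:159438960-159439259, between genes. Pdzrn3-Cntn3 is chr6:101883049-101883348, between genes. Gm9008-Lrrtm1 is chr6:76915583-76915882, with its middle in an intron of Ctnna2.
Tox-Car8: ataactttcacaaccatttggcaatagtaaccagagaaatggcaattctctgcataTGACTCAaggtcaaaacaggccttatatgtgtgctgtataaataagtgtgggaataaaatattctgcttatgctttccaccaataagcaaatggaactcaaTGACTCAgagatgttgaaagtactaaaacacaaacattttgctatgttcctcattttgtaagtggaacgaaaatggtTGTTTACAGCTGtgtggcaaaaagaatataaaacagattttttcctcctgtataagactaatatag
Gli3-Inhba: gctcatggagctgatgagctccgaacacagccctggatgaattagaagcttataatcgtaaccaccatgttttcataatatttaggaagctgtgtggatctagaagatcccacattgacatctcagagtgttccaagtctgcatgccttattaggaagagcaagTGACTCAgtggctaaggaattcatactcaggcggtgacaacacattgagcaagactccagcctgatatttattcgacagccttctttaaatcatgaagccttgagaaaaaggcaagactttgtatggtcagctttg
Lrrc4c-Gm10801: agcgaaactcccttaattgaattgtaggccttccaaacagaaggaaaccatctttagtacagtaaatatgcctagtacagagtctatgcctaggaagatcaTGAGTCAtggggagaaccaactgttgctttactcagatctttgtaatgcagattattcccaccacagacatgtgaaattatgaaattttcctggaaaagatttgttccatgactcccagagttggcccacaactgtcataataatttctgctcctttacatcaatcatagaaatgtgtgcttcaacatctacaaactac
Dhx35-Gm826: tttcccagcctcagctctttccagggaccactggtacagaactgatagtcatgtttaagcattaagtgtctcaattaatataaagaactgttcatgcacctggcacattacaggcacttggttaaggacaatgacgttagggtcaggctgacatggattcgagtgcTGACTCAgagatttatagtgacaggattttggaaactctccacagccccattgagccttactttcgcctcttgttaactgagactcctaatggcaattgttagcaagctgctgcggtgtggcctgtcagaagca
Pdzrn3-Cntn3: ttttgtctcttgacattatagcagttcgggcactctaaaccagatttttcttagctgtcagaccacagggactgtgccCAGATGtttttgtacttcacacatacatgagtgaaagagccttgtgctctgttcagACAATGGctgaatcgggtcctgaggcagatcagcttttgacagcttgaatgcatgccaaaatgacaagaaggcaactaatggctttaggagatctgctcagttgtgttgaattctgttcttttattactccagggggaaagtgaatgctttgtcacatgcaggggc
Gm9008-Lrrtm1: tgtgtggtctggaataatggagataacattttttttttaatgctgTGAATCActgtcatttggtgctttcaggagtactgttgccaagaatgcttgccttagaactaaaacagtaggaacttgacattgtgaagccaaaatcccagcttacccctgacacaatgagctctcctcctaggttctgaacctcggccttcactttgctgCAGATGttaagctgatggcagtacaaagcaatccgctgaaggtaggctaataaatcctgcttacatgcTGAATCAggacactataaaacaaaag

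All 3 of the rising peaks held TGANTCA, and so did Dhx35-Gm826 and Gm9008-Lrrtm1 among the falling ones. In Tox-Car8 the forkhead match at bases 235 to 241 and the E-box at bases 241 to 246 share 1 base. Over all peaks of the set, 23.7% of such 300 bp windows held TGANTCA, 22.7% CAGCTG, 25.4% CAGATG, 4.78% TGTTTAC and 4.57% ACAATGG. A match describes letters only and is neither a bound site nor a cause.

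ATAC-seq totals on peaks ran from 26917178 to 47653979 counts per library, and RNA-seq totals on genes from 15848866 to 20915057. Against unadjusted totals, 3 counts are worth 0.0630 to 0.111 CPM, and a peak with no read in a library could lie as high as that. On the adjusted scale of the levels given here, 3 counts were 0.0956 CPM in TKO 1 and 0.0927 CPM in TKO 2. In TKO 3, 2 counts were 0.0845 CPM. Neuroendocrine markers, which define SCLC cells, were not at the same level in all libraries. The summed RNA level of 12 neuroendocrine markers was 1780 to 4394 CPM in TKO, 59.3, 189 and 2018 CPM in CARM1 knockout and 33.6 to 51.5 CPM in NFIB mutant libraries. In contrast, 6 fibroblast markers summed to 11.1 to 63.4 CPM in TKO, 14457 to 25795 CPM in CARM1 knockout and 9479 to 15915 CPM in NFIB mutant libraries. All 6 were called higher in CARM1 knockout and 5 in NFIB mutant libraries, while 1 and 11 of the neuroendocrine markers were called lower. The 6 leukocyte markers summed to 3.32 to 48.6 CPM in TKO, 157 to 2154 CPM in CARM1 knockout and 14.9 to 415 CPM in NFIB mutant libraries, with the T cell marker Cd3e at or under 3 counts in every genotype. Lung epithelial markers summed to 11.9 to 32.5 CPM in TKO, 2.24 to 774 CPM in CARM1 knockout and 2.54 to 995 CPM in NFIB mutant libraries, and endothelial markers to at most 17.4 CPM in any library. Fibroblast markers were thus higher in every mutant library than in every TKO library, while the neuroendocrine sum of CARM1 knockout 3 lay inside the TKO range and the leukocyte and lung epithelial sums of some mutant libraries overlapped with TKO. The part of these markers in the results was not tested. According to the methods, cells of both assays were sorted from lung tumors on tdTomato, a reporter that Cre switches on, and such a gate removes cells in which Cre never acted. In bulk libraries, more or fewer cells of a type and more or less open chromatin per cell cannot be told apart.

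Gene desert peaks changed in both directions, and more of them fell than among peaks in general. Of the 10697, 10502 passed the filter on low counts and were tested. A call needed an adjusted p under 0.1 in edgeR's quasi-likelihood test and a log2 fold change of 0.5 or more in either direction. In CARM1 knockout against TKO, 4442 were called higher and 4499 lower (42.3 and 42.8%), against 38.7 and 32.4% of all 111116 tested peaks. In NFIB mutant against TKO, 4362 were called higher and 4593 lower (41.5 and 43.7%), against 39.3 and 34% of all tested peaks. Both comparisons use the same 3 TKO libraries and are therefore given side by side. In the full set of 10697, every mutant library lay above every TKO library for 3586 peaks (33.5%) and below every TKO library for 3881 (36.3%), with 32.9 and 28.7% of all peaks doing so.

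The changes were large and nearly balanced. The median log2 fold change of gene desert peaks stood at 0.24 (CARM1 knockout) and 0.10 (NFIB mutant), and changed with the scaling, being 0.06 and -0.05 with DESeq2 size factors, 0.78 and 0.67 with library totals and -0.23 and -0.28 with an offset for GC content. The median absolute log2 fold change was 3.17 and 3.29, compared with 2.02 and 2.11 over all peaks and 0.55 and 0.62 over peaks within 1000 bp of a gene start. CARM1 knockout and NFIB mutant libraries were not separated by any single gene desert peak in edgeR. No peak was called between them (lowest adjusted p = 0.132), and 754 of the 10502 tested had an unadjusted p under 0.05. Of all tested peaks, edgeR called 0%, and 6.13% had an unadjusted p under 0.05 in that comparison. DESeq2 called 115 gene desert peaks. Its share over all peaks is not given here, so that count has no background.

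Leaving start sites aside, the share of falling peaks was higher beyond 200000 bp than nearer to genes. In CARM1 knockout against TKO, 28% of tested peaks at 1000 to 50000 bp were called lower, 35.1% at 50000 to 200000 bp, 41.7% at 200000 to 300000 bp, 43.9% at 300000 to 500000 bp and 43.6% beyond 500000 bp. The called higher share was 41.2, 43.6, 41.8, 42.3 and 43.5% in the same bands. Peaks within 1000 bp of a start were called higher in 11.7% and lower in 36.5%. The size of the change grew along the same axis, with a median absolute log2 fold change of 1.89, 2.53, 2.99, 3.28 and 3.48 from 1000 bp outwards and 3.74 for the 193 tested peaks beyond 1000000 bp. NFIB mutant tumors gave 29, 36.2, 42.6, 44.8 and 44.6% lower in those bands. At the distance limit itself there was no step. The 809 peaks at 190000 to 200000 bp had a median log2 fold change of 0.65 for CARM1 knockout and 0.77 for NFIB mutant, and the 765 peaks at 200000 to 210000 bp had 0.82 and 0.85.

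**Figure D1:**
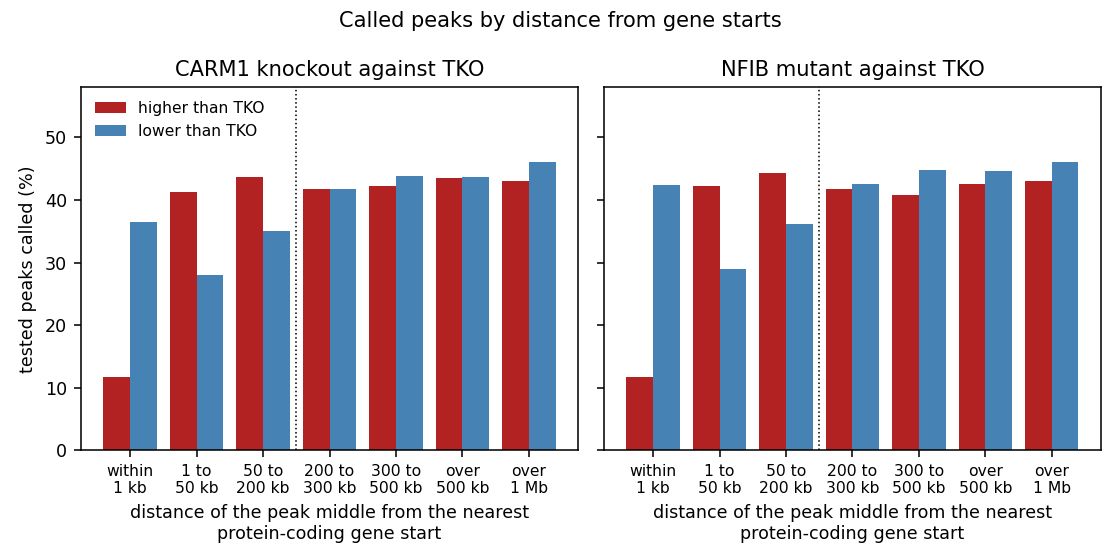
Percentage of tested ATAC-seq peaks called higher (red) or lower (blue) than in TKO (y axis) by distance of the peak's middle from the nearest protein-coding gene start (x axis), with 1 panel per mutant; peaks right of the dotted line are gene desert peaks, and the last band is part of the one before it. In the left panel the lower share is 28% at 1000 to 50000 bp and 43.6% beyond 500000 bp.

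These peaks were shorter and more AT-rich than peaks in general, and open in fewer genotypes at a time. Their median length was 640 bp, compared with 780 bp for all peaks, and their median GC content was 45.3%, compared with 48.9%. Peaks just inside the limit, at 190000 to 200000 bp, were close to them, with medians of 681 bp and 46.6%. The median distance to a gene start was 312303 bp and the farthest peak was 2563870 bp away. Counting a genotype as open where at least 2 of its libraries reached 1 CPM, 3983 gene desert peaks (37.2%) were open in TKO alone, 2834 (26.5%) in both mutants and not TKO, and 1486 (13.9%) in all 3 genotypes. Of the other 98589 peaks on these chromosomes, 18.9% were open in TKO alone, 22.7% in both mutants and not TKO, and 39.0% in all 3. That group includes the peaks within 1000 bp of a gene start, of which 88.8% were open in all 3. Single libraries had a level of at least 1 CPM at 48.5 to 52.8% of gene desert peaks in TKO, 47.5 to 48.8% in CARM1 knockout and 40.8 to 48.1% in NFIB mutant. Every NFIB mutant library was thus below every TKO library, and CARM1 knockout overlapped with TKO. Other peaks went the opposite way, with 60.3 to 61.3% at that level in TKO and 65.8 to 68.9% in the mutants.

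The annotation at the peak went with its direction. The middle of 5688 members lay between genes, of 3589 in introns of protein-coding genes, of 1102 in noncoding genes and of 318 in an exon. In CARM1 knockout, those in protein-coding introns were called higher in 37.7% and lower in 46.3% (median log2 fold change -0.53), those between genes in 44.7 and 41.7%, and those in noncoding genes in 48.5 and 38.1%. NFIB mutant tumors showed 37.5 and 47.1%, 43.6 and 42.7%, and 47.6 and 37.8%.

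The genotype difference exceeded the spread between libraries. Over 10338 tested peaks outside the Mycn region described next, 2 libraries of 1 genotype differed by a median of 0.340 to 0.608 in TKO, 0.379 to 0.400 in CARM1 knockout and 0.377 to 0.441 in NFIB mutant (absolute log2 difference, pseudocount 0.5 CPM). TKO 3 was the library farther from its group, at 0.595 and 0.608 from TKO 1 and TKO 2, which were 0.340 apart. Against the mean of the 6 mutant libraries, TKO 1, 2 and 3 stood at 1.79, 1.86 and 1.44. With TKO represented by replicate 3 alone, 3097 gene desert peaks rose and 3243 fell in CARM1 knockout, and 3060 and 3478 in NFIB mutant tumors.

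A single region on chromosome 12 held more than the rest of the gene desert signal in TKO 1 and TKO 2. Gene desert peaks took 7.60, 7.52 and 3.24% of the counts in TKO 1, 2 and 3, 3.33, 3.42 and 3.21% in CARM1 knockout and 3.12, 3.03 and 3.84% in NFIB mutant libraries. The TKO mean was 6.12 ± 2.49%, that of CARM1 knockout 3.32 ± 0.107% and that of NFIB mutant 3.33 ± 0.442% (SD, n = 3 each). The mean of the mutants minus that of TKO was -2.79 percentage points (two-sided exact permutation p = 0.0952, 3 against 6 libraries, for which the smallest possible p is 0.0238). The 178 gene desert peaks within 5000000 bp of Mycn took 4.50, 4.28 and 0.0910% in TKO 1, 2 and 3, and at most 0.0802% in any mutant library. With all peaks within that distance left out of both the share and the total, the shares were 3.46, 3.59 and 3.16% in TKO and 2.97 to 3.80% in the mutants, a difference of -0.13 points (exact permutation p = 0.548).

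**Figure D2:**
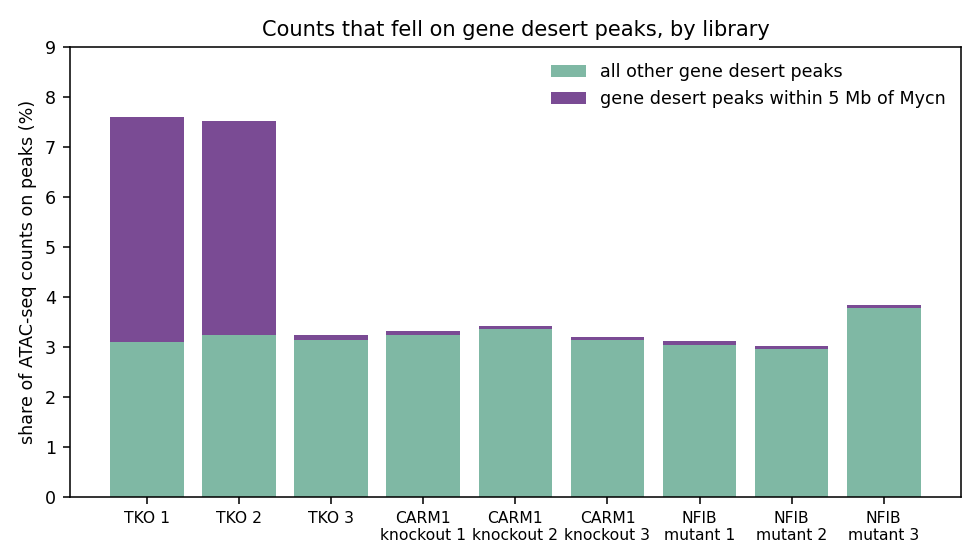
Share of each library's ATAC-seq counts on gene desert peaks (y axis, %), 1 bar per library, with peaks within 5000000 bp of Mycn in purple and all other gene desert peaks in green. TKO 1 and TKO 2 carry 4.50 and 4.28% in purple and the other 7 libraries at most 0.0910%, while the green part is 2.96 to 3.79% in every library.

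Mycn encodes a MYC family transcription factor whose gene is amplified in a subset of human SCLC. Its gene was at 1173, 1560 and 19.1 CPM of RNA in TKO 1, 2 and 3, 0.817 to 1.57 CPM in CARM1 knockout and 1.27 to 14.4 CPM in NFIB mutant libraries. All TKO libraries lay above all mutant libraries, and TKO 3 was far closer to the mutants (edgeR adjusted p = 0.00762 and 0.0117; against TKO 3 alone the NFIB mutant call was lost, at 0.353). Of the 56 gene desert peaks within 1000000 bp of Mycn, 51 were tested and all 51 were called lower in both comparisons, with medians of -5.51 and -5.57. The longest of them, Fam49a-Mycn (chr12:12656593-12816188, 159596 bp), was at 26379, 28935 and 228 CPM in TKO, 38.3 to 62.2 CPM in CARM1 knockout and 30.5 to 72.1 CPM in NFIB mutant libraries (log2 fold change -8.48 ± 1.66 and -8.46 ± 1.66, SE, edgeR adjusted p = 0.00352 and 0.00331). Nbas-Fam84a (chr12:13620481-13635908) was at 1129, 2669 and 15.7 CPM in TKO and 3.41 to 8.67 CPM in the mutants. Rad51ap2-Fam49a (chr12:11982537-11984357) was at 56.9, 40.5 and 0.507 CPM in TKO and 0.0768 to 0.491 CPM in the mutants, so TKO 3 stood with the mutants, and its call was lost against TKO 3 alone (adjusted p = 0.528 and 0.471). Of the 29 gene desert peaks over 10000 bp long, 28 lay within 5000000 bp of Mycn. Copies of this DNA and openness of its chromatin cannot be told apart in these counts, although the study's methods state that regions with a likely change in copy number were left out. Without the 178 peaks, 42.6% of the rest rose and 42.4% fell in CARM1 knockout, and 41.8 and 43.3% in NFIB mutant tumors.

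Beyond this region, chromosomes differed. On chromosome 12, 590 tested peaks outside the Mycn region were called lower in 66.1% for CARM1 knockout and 66.9% for NFIB mutant, with medians of -3.05 and -3.56. Start-site peaks of that chromosome had medians of -0.82 and -0.96. Against TKO 3 alone the gene desert medians were -1.84 and -2.36. Chromosome 15 (464 tested peaks) and chromosome 19 (149) went the other way, with 54.1 and 56.4% called higher in CARM1 knockout and 57.1 and 54.4% in NFIB mutant tumors.

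The largest rises and falls outside the Mycn region were near-complete switches between genotypes. They were picked by size among 662 peaks that rose and 969 that fell in both mutants without overlap between the groups, at most 1 per desert, so the values below are a description. Gli3-Inhba (chr13:15806481-15807544, 343777 bp from the Gli3 start and 204839 bp from the Inhba start) was at 0.159, 0.216 and 0.423 CPM in TKO, 22.0, 28.6 and 23.5 CPM in CARM1 knockout and 15.8, 22.2 and 30.1 CPM in NFIB mutant libraries (log2 fold change 6.56 ± 0.42 and 6.44 ± 0.41, SE). Gli3 is a transcription factor of hedgehog signaling, and Inhba encodes an activin subunit. Tox-Car8 (chr4:7688359-7689268) was at 0, 0.0618 and 0.169 CPM in TKO, 15.9, 6.34 and 6.58 CPM in CARM1 knockout and 9.44, 8.40 and 11.2 CPM in NFIB mutant libraries. Lrrc4c-Gm10801 (chr2:97433847-97434848) was at 0.159, 0.0618 and 0.0845 CPM in TKO, 13.5, 6.45 and 10.3 CPM in CARM1 knockout and 6.37, 7.75 and 15.1 CPM in NFIB mutant libraries. In all 3 of these peaks every TKO library was below 1 CPM and every mutant library was above 6 CPM. Ano2-Ntf3 (chr6:125937367-125938269, in Ano2) was at most 0.0927 CPM in TKO, 3.80 to 4.70 CPM in CARM1 knockout and 5.95 to 11.8 CPM in NFIB mutant libraries. Klf4-Gm26657 (chr4:56305483-56306319) was at most 0.124 CPM in TKO and 5.84 to 14.6 CPM in the mutants. Rgmb-Zfp960 (chr17:16339638-16340755) was at most 0.185 CPM in TKO and 4.35 to 14.1 CPM in the mutants.

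The falling peaks were more uneven within TKO. Dhx35-Gm826 (chr2:159438477-159439741) was at 52.2, 31.1 and 17.4 CPM in TKO, 0.115 to 0.388 CPM in CARM1 knockout and 0.157 to 0.299 CPM in NFIB mutant libraries (log2 fold change -6.92 ± 0.60 and -7.34 ± 0.61, SE). Pdzrn3-Cntn3 (chr6:101882699-101883698) was at 20.4, 31.7 and 16.9 CPM in TKO, 0.0960 to 0.169 CPM in CARM1 knockout and 0.0785 to 0.299 CPM in NFIB mutant libraries (-7.43 ± 0.59 and -6.71 ± 0.57). In both peaks TKO 3 was the lowest TKO library and far above every mutant library. In 3 others, TKO 3 was nearer to the mutants, though above every one of their libraries. Gm9008-Lrrtm1 (chr6:76915158-76916307) was at 36.2, 43.9 and 3.55 CPM in TKO and at most 0.484 CPM in the mutants. Rpl10l-Mdga2 (chr12:66591302-66592500, in Mdga2) was at 28.4, 37.9 and 1.35 CPM, and at most 0.269 CPM in the mutants. Rgs6-Dpf3 (chr12:82799617-82800467, in Rgs6) was at 16.4, 16.3 and 2.32 CPM, and at most 0.144 CPM in the mutants. The median log2 fold change among peaks within 2500000 bp on either side also differed, and in CARM1 knockout it was -4.72 at Gm9008-Lrrtm1 and -0.33 at Rgs6-Dpf3.

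**Figure D3:**
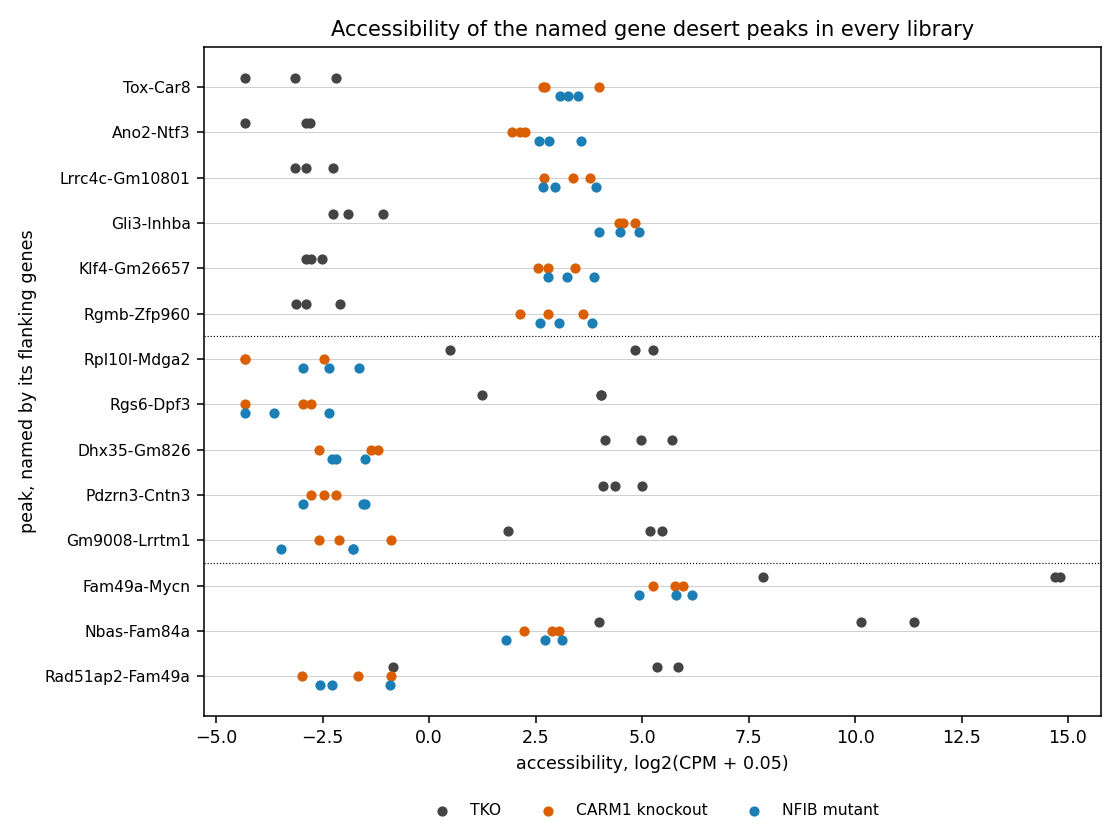
Level of 14 gene desert peaks in each of the 9 ATAC-seq libraries (x axis, log2 of CPM + 0.05), with peaks in rows and genotypes in colors; dotted lines separate 6 rises, 5 falls and 3 peaks near Mycn. By the rule that picked them, every TKO point is left of every mutant point in the rises and right of every mutant point in the falls.

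Motif letters differed between rising and falling peaks. TGANTCA was found in 28.8% of gene desert windows and 23.7% of all windows. It was in 47.5% of gene desert peaks called higher in CARM1 knockout, 10.5% of those called lower and 30.9% of those not called. Counted the other way, 2111 of 3068 tested gene desert peaks with TGANTCA were called higher (68.8%) and 474 lower (15.4%), and those without it were called higher in 31.4% and lower in 54.1%. NFIB mutant tumors gave 68.4 and 15.6% with the motif and 30.5 and 55.3% without. The same was seen over all tested peaks, where 66.5% of those with TGANTCA rose and 11.1% fell in CARM1 knockout. Peaks with the motif stayed more often higher than lower with an offset for GC content (53.6 and 17.0% in CARM1 knockout) and against TKO 3 alone (47.6 and 11.97%). AP-1 factors, made of FOS and JUN proteins, are common in mesenchymal and activated cells.

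Of the other motifs, RUNX and TEAD matches went with higher calls and SOX and CAGCTG matches with lower calls, in the deserts as over all peaks. TGTGGTT, bound by RUNX factors, was in 10.02% of gene desert windows and 8.68% of all windows, and its gene desert peaks were called higher in 57.1% and lower in 27.3% in CARM1 knockout (55.1 and 20.7% over all peaks with the motif). GGAATG, bound by TEAD factors, was in 20.7 and 19.04%, with 55.6% higher and 29.5% lower (all peaks 50.2 and 23.9%). ACAATGG of SOX factors was in 6.48 and 4.57%, and its gene desert peaks were called higher in 33.4% and lower in 54.3% (all peaks 36.97 and 42%). CAGCTG was in 21.8 and 22.7%, with 33.5% higher and 51.2% lower (all peaks 32.3 and 39.99%). NFIB mutant tumors gave 53.8 and 28.8% for TGTGGTT, 55.1 and 29.97% for GGAATG, 31.4 and 56.5% for ACAATGG, and 32.4 and 52.8% for CAGCTG. The motif of the insulator protein CTCF was rarer in deserts (2.13%) than over all windows (5.06%). The full palindrome of the NFI family, which includes NFIB, was in 16 gene desert windows (0.150%, all windows 0.1003%). Of the 15 that were tested, 12 were called lower and 2 higher in each mutant. Over all 110 tested peaks with that palindrome, 67.3% were called lower in CARM1 knockout.

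Peaks of the deserts stood in groups. With middles at most 50000 bp apart, the 10697 peaks formed 1211 single peaks and 647 clusters of at least 5, which held 6817 peaks (63.7%) and spanned a median of 105933 bp. Neighbouring gene desert peaks at most 5000 bp apart that were both called in CARM1 knockout had the same direction in 1410 of 1705 pairs (82.7%), and in 1419 of 1734 (81.8%) in NFIB mutant. Neighbours more than 200000 bp apart did so in 59.7 and 61.2%. Among other peaks the shares were 76.9 and 76.3% at up to 5000 bp and 64.2 and 62.7% beyond 200000 bp. Most clusters were still mixed, since calls went both ways in 397 of 647 clusters in CARM1 knockout and in 414 of 646 in NFIB mutant tumors. Calls were higher alone in 123 and 115 clusters and lower alone in 127 and 117. By the summed level of a cluster, every mutant library was above every TKO library in 173, below in 215, and the groups overlapped in 259. Neither the grouping nor these summed levels were set against other peaks, so these counts have no background.

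The 6 clusters with the most peaks showed this range. The largest, Rad51ap2-Fam49a (chr12:11657920-12060069), had 92 peaks and belongs to the Mycn region, with summed levels of 5704, 3217 and 200.1 CPM in TKO and 75.02 to 139 CPM in the mutants. Its 80 tested peaks were all called lower in both mutants. Ubash3b-Sorl1 had 56 peaks that summed to 168, 214 and 205 CPM in TKO, 356, 304 and 285 CPM in CARM1 knockout and 284, 349 and 296 CPM in NFIB mutant libraries. All mutant libraries were above all TKO libraries there, and 36 of its peaks rose and 12 fell in CARM1 knockout. The other 4 overlapped between the genotypes. Gm765-Foxp1, with 78 peaks within Foxp1, summed to 299, 373 and 161 CPM in TKO and 240 to 329 CPM in the mutants, while 36 of its 77 tested peaks rose and 19 fell in CARM1 knockout. Rps24-Zmiz1 had 51 peaks (14 higher, 27 lower), Sox9-Sstr2 had 49 (15 higher, 19 lower) and Kif2a-Smim15 had 47 (28 higher, 14 lower) in CARM1 knockout. In NFIB mutant tumors the counts were 32 and 22 for Gm765-Foxp1, 15 and 28 for Rps24-Zmiz1, 17 and 20 for Sox9-Sstr2 and 26 and 16 for Kif2a-Smim15.

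Some clusters switched as a whole. Picked for the highest median, Rgmb-Zfp960 (5 peaks, chr17:16301528-16345672) summed to 0.287, 0.494 and 0.507 CPM in TKO, 26.9, 16.4 and 14.5 CPM in CARM1 knockout and 19.3, 19.97 and 37.5 CPM in NFIB mutant libraries. Myc-Gsdmc (5 peaks, chr15:63157083-63192277) summed to 1.24, 0.680 and 1.10 CPM in TKO and 7.76 to 15.5 CPM in the mutants. En1-Insig2 (8 peaks, chr1:120960925-121035278) summed to 1.31, 0.865 and 4.61 CPM in TKO and 22.6 to 33.0 CPM in the mutants. In each of these clusters the 6 mutant libraries lay above the 3 TKO libraries. Among the lowest medians, 2 clusters belong to the Mycn region. The other is Flrt3-Kif16b (10 peaks within Macrod2, chr2:142253890-142445670), which summed to 110, 139 and 102 CPM in TKO and 1.46 to 3.26 CPM in the mutants, with all 9 tested peaks called lower.

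The same was seen over whole deserts. Taking a desert as the interval between neighbouring gene starts, 154 had at least 20 tested peaks outside the Mycn region. In 37 of them all mutant libraries were above all TKO libraries by summed level, in 50 they were below, and in 67 the groups overlapped. These counts too have no background from other peaks. The following stand at the ends of the order of median fold change and are given without a test. In Inhba-Mplkip all 31 tested peaks were called higher in CARM1 knockout and 29 in NFIB mutant. The desert summed to 4.65, 5.56 and 8.37 CPM in TKO, 94.6, 99.8 and 108 CPM in CARM1 knockout and 76.2, 88.7 and 127 CPM in NFIB mutant libraries. Tnc-Pappa had 20 and 21 of 22 peaks called higher and summed to 3.46 to 7.94 CPM in TKO and 68.2 to 128 CPM in the mutants. Rasgrp1-Thbs1 had 32 and 31 of 34 called higher, at 95.4 to 137 CPM in the mutants. Tnc encodes a matrix glycoprotein of connective tissue and Thbs1 encodes thrombospondin, which cells secrete into the matrix. Tnc RNA was at 22.5, 3.06 and 0.886 CPM in TKO, 854, 927 and 188 CPM in CARM1 knockout and 633, 1810 and 675 CPM in NFIB mutant libraries (edgeR adjusted p = 0.0116 and 0.00717). At the other end, Trpc7-Spock1 had all 23 tested peaks called lower in both mutants, and summed to 113 to 154 CPM in TKO and 2.30 to 8.49 CPM in the mutants. Nrxn3-Dio2 had 35 of 36 called lower and summed to 195, 297 and 133 CPM in TKO, 12.9 to 27.4 CPM in CARM1 knockout and 6.36 to 12.3 CPM in NFIB mutant libraries. Nrxn3 encodes a synaptic adhesion protein, and its RNA was at 7.69, 9.45 and 23.6 CPM in TKO and had no count in any mutant library. Hs3st4-Kdm8 had 19 of 20 called lower, and Hs3st4 RNA likewise had no count in any mutant library. In each of these deserts all TKO libraries lay on one side of all mutant libraries.

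The 4 genes plotted with their deserts had peaks that mostly went one way along the whole stretch. Inhba, Myc and Mycn flank peaks or clusters named above, and Sox2 was added after its values had been seen. Inhba had 31 tested peaks downstream and 12 upstream, 204.7 to 1482 kb from its start, of which 41 rose and 1 fell in CARM1 knockout, and 39 and 1 in NFIB mutant tumors. Its RNA was at 2.35, 2.58 and 0.399 CPM in TKO, 47.7, 121 and 38.8 CPM in CARM1 knockout and 21.7, 43.0 and 14.2 CPM in NFIB mutant libraries (log2 fold change 5.28 ± 0.87 and 3.88 ± 0.82, SE, edgeR adjusted p = 0.00416 and 0.00828). Around Myc, the oncogene paralogous to Mycn, 49 of 66 downstream peaks rose and 7 fell in CARM1 knockout, and all 23 calls upstream were higher. NFIB mutant tumors showed 49 and 6 downstream and 23 higher calls upstream. Myc RNA was at 2.88, 1.44 and 27.9 CPM in TKO, 78.9, 87.2 and 56.1 CPM in CARM1 knockout and 44.7 to 93.6 CPM in NFIB mutant libraries (log2 fold change 2.78 and 2.84, adjusted p = 0.0647 and 0.0534), and TKO 3 was again nearest to the mutants. The call in CARM1 knockout was lost without TKO 1, TKO 2, CARM1 knockout 1 or CARM1 knockout 2 (adjusted p = 0.146, 0.104, 0.125 and 0.128), and that in NFIB mutant tumors without TKO 1, NFIB mutant 1 or NFIB mutant 2 (0.125, 0.103 and 0.110). Sox2, a transcription factor of neural progenitors and airway cells, had 31 tested peaks, of which 28 were called lower and none higher in CARM1 knockout, and 27 and 1 in NFIB mutant tumors. Sox2 RNA was at 225, 237 and 208 CPM in TKO, 0.0678, 40.9 and 11.9 CPM in CARM1 knockout and 10.03, 6.17 and 0 CPM in NFIB mutant libraries. All mutant libraries were below all TKO libraries, and the call was made in NFIB mutant tumors but not in CARM1 knockout (adjusted p = 0.0485 and 0.127). It was lost there without NFIB mutant 2 (0.121) and gained in CARM1 knockout without NFIB mutant 3 (0.0829).

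**Figure D4:**
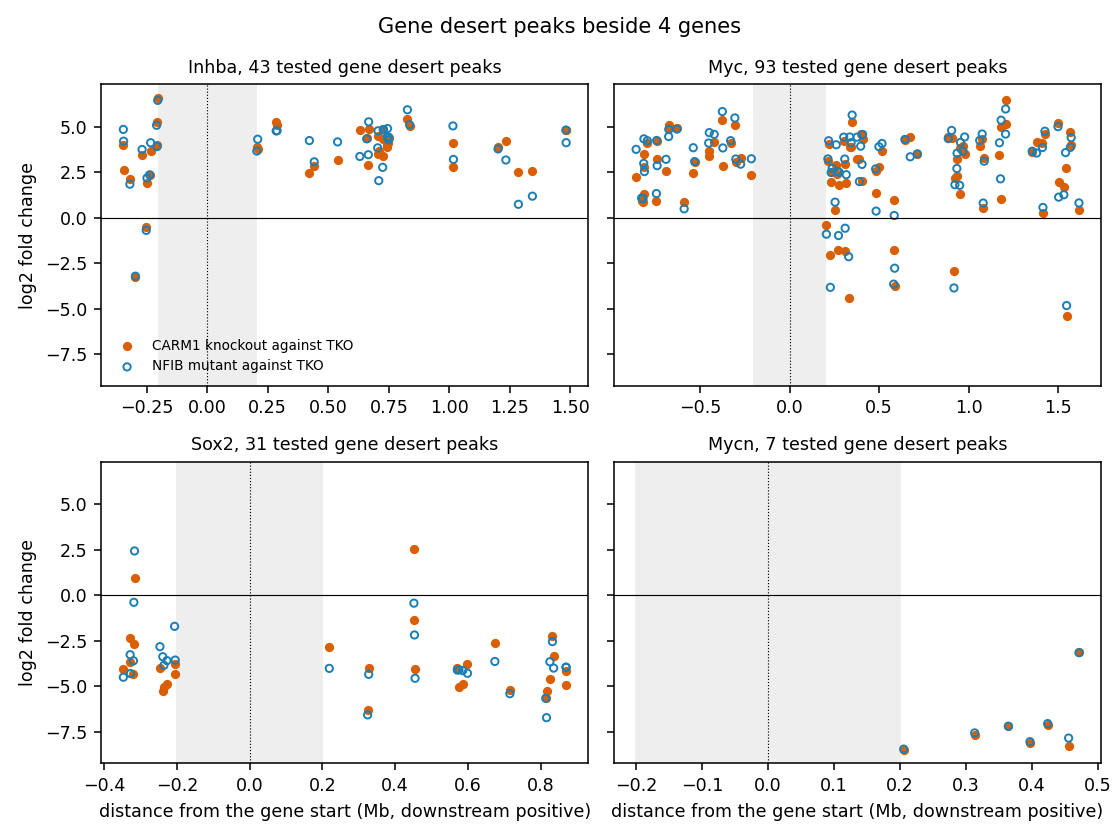
Log2 fold change of each tested gene desert peak against TKO (y axis) by distance from the start of Inhba, Myc, Sox2 or Mycn (x axis, Mb, downstream positive), for CARM1 knockout (orange, filled) and NFIB mutant (blue, open); the grey band is the stretch within 200000 bp that holds no gene desert peak by definition. Around Inhba 41 of 43 peaks were called higher in CARM1 knockout and around Sox2 28 of 31 were called lower.

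The nearest gene start on either side gave 1712 flanking genes, of which 1305 were tested by RNA-seq with the same limit on the adjusted p and a log2 fold change of 0.8 or more in either direction. In CARM1 knockout 269 were called higher and 267 lower (20.6 and 20.5%), against 20.5 and 18.3% of all tested genes. In NFIB mutant tumors 287 were called higher and 392 lower (22 and 30%), against 22.3 and 23.5% of all. No flanking gene was called between the mutants by edgeR, and 129 of the 1305 had an unadjusted p under 0.05 (9.11% of all tested genes did). DESeq2 called 66 flanking genes, and its share over all genes is not given here. Peaks beside genes called higher in CARM1 knockout were themselves called higher in 56.9% and lower in 28.6%, and those beside genes called lower in 32.2 and 54.8%. Peaks beside genes not called stood at 42.2 and 42.3%. In NFIB mutant tumors the values were 54.9 and 30.8%, 32.1 and 54.8%, and 42.8 and 41.7%. Peaks inside the body of a gene called lower were called lower in 59.0% and higher in 26.0% in CARM1 knockout.

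Developmental genes at the desert edges were called about as often as other flanking genes in CARM1 knockout, and their classes leaned to different sides. Of 351 genes in 5 lists written from general knowledge, 183 flank a desert with peaks and 149 of these were tested. In CARM1 knockout 32 were called higher and 32 lower (21.5 and 21.5%), near the 20.6 and 20.5% of all flanking genes, and in NFIB mutant tumors 37 and 55 (24.8 and 36.9%), against 22 and 30%. The differences between the classes were not tested.

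**Figure D5:**
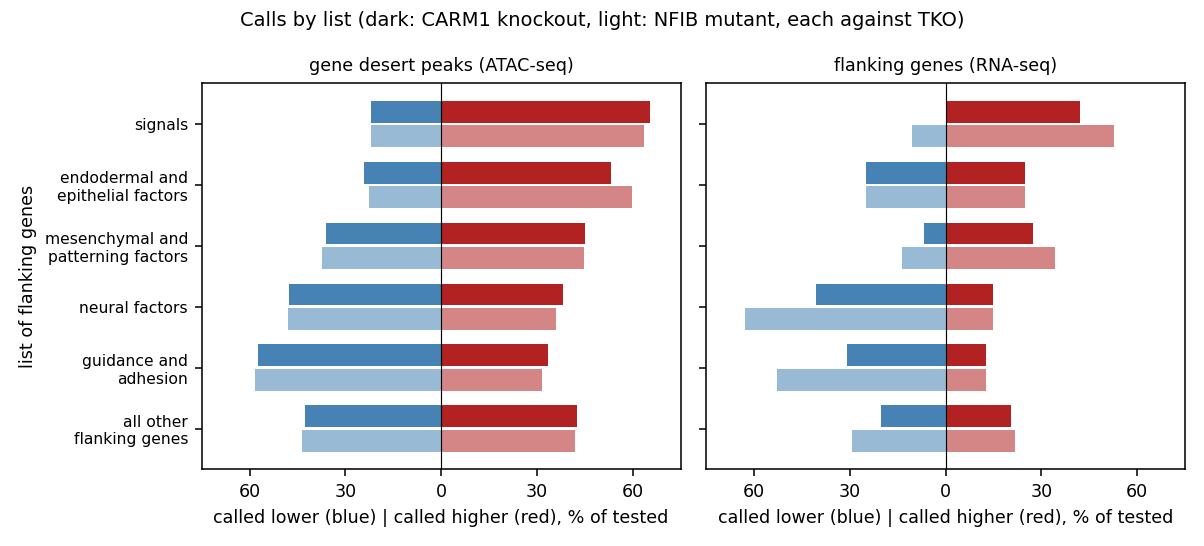
Percentage called lower (blue, to the left) or higher (red, to the right) in each developmental list, for gene desert peaks beside its genes in ATAC-seq (left panel) and for the flanking genes in RNA-seq (right panel), with CARM1 knockout in dark and NFIB mutant in light shades. Peaks beside signal genes lean right, with 65.3% higher in CARM1 knockout, and those beside guidance and adhesion genes lean left, with 57.5% lower.

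Secreted signals and their inhibitors leaned upward. Of 19 tested signal genes, 8 were called higher and none lower in CARM1 knockout, whereas NFIB mutant tumors had 10 higher and 2 lower. Of 311 gene desert peaks beside this list, 65.3% of those tested rose and 21.8% fell in CARM1 knockout, and 63.6 and 22.1% in NFIB mutant. Cxcl12, a chemokine made by stromal cells, was at 2.64, 2.19 and 2.88 CPM in TKO, 421, 1362 and 476 CPM in CARM1 knockout and 148.5, 86.7 and 237.5 CPM in NFIB mutant libraries (log2 fold change 8.19 ± 0.71 and 5.93 ± 0.64, adjusted p = 4.6e-04 and 7.9e-04). Of its 20 peaks 16 and 14 were called higher. The BMP inhibitor Grem1 was at 1.28 to 16.1 CPM in TKO, 640 to 1691 CPM in CARM1 knockout and 180 to 3047 CPM in NFIB mutant libraries (adjusted p = 0.00936 and 0.00631). Fgf10, a growth factor of mesenchyme, was at or under 3 counts in every TKO library, 2.02 to 18.5 CPM in CARM1 knockout and 7.24 to 106 CPM in NFIB mutant libraries, and all 6 of its peaks were called higher in both. Peaks and gene did not always move together. Hgf had 4 peaks higher and 4 lower beside a gene called higher.

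Mesenchymal and patterning factors also rose more often than they fell, by 12 to 3 of 44 tested in CARM1 knockout and 15 to 6 in NFIB mutant tumors. Their desert peaks were called higher in 45% and lower in 35.9% in CARM1 knockout, 44.9 and 37.3% in NFIB mutant, and as often higher as lower (364 each) in CARM1 knockout with an offset for GC content. The higher share is near that of all gene desert peaks (42.3 and 41.5%), while the lower share is under theirs (42.8 and 43.7%). The examples here were picked among the called genes after their values were seen. Osr1, a factor of intermediate mesoderm and fibroblasts, was at 0.0961, 0.350 and 0.0443 CPM in TKO, 25.01, 13.6 and 47.4 CPM in CARM1 knockout and 29.6, 21.9 and 28.2 CPM in NFIB mutant libraries, with 15 of 17 peaks called higher in both. Tbx18, a mesenchymal T-box factor, was at 0.0443 to 0.769 CPM in TKO, 30.7 to 75.4 CPM in CARM1 knockout and 19.3 to 50.1 CPM in NFIB mutant libraries, with 11 of 14 peaks higher in both. Zfpm2, a cofactor of GATA factors, was at 2.23 to 5.43 CPM in TKO and 20.9 to 41.6 CPM in the mutants, and 17 and 18 of its 18 peaks were called higher. The mutant libraries were above the TKO libraries in each of these genes. Gli3, beside the Gli3-Inhba peak, was at 10.9, 16.9 and 0.487 CPM in TKO and 44.9 to 71.5 CPM in the mutants (adjusted p = 0.0564 and 0.0473). The Gli3 call in CARM1 knockout was lost without TKO 1, CARM1 knockout 1 or CARM1 knockout 2 (adjusted p = 0.117, 0.115 and 0.116), and that in NFIB mutant tumors without TKO 1 (0.101).

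Neural factors leaned downward in RNA-seq. Of 27 tested, 4 rose and 11 fell in CARM1 knockout, and 4 and 17 in NFIB mutant tumors. Peaks beside the list were called higher in 38.3% and lower in 47.6% in CARM1 knockout, and in 36.1 and 47.9% in NFIB mutant. Those shares are near the 42.3 and 42.8%, and 41.5 and 43.7%, of all tested gene desert peaks. Myt1l, a factor of neurons, was at 98.8, 98.7 and 99.0 CPM in TKO, 0, 0 and 12.3 CPM in CARM1 knockout and 0.304, 0 and 0 CPM in NFIB mutant libraries (adjusted p = 0.0958 and 0.0182), with 24 of 26 peaks called lower in both. The Myt1l call in CARM1 knockout was lost without any single library other than CARM1 knockout 3 (adjusted p = 0.113 to 0.164). Sox11 was at 326 to 356 CPM in TKO, 4.54 to 35.8 CPM in CARM1 knockout and 0.123 to 9.42 CPM in NFIB mutant libraries, and 24 and 26 of its 30 peaks were called lower. Its call in CARM1 knockout was lost without CARM1 knockout 1 or 2 (0.109 and 0.113). Onecut1, a factor of motor neurons and endocrine precursors, was at 1.97 to 9.04 CPM in TKO and at most 0.408 CPM in the mutants, with all 6 peaks lower in both. These 3 genes were picked after their values were seen. Nkx6-1 went against its peaks, and was called lower with 12 of 17 peaks called higher in both mutants. The Nkx6-1 call in NFIB mutant tumors was lost without TKO 2 or any NFIB mutant library (adjusted p = 0.103 to 0.247). En1 was at or under 3 counts in TKO and 19.4 to 65.8 CPM in the mutants, and 15 and 13 of its 15 peaks were called higher.

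Genes of axon guidance and neuronal adhesion were the class with the most desert peaks, 1060, of which 33.6% of those tested rose and 57.5% fell in CARM1 knockout and 31.5 and 58.3% in NFIB mutant. Of 55 tested genes, 7 rose and 17 fell in CARM1 knockout, and 7 and 29 in NFIB mutant tumors. Cntn3, beside the Pdzrn3-Cntn3 peak, was at 36.5, 21.4 and 27.5 CPM in TKO, 0, 0 and 0.843 CPM in CARM1 knockout and 0.0617 to 0.122 CPM in NFIB mutant libraries (adjusted p = 0.0122 and 0.00614), and all 9 tested peaks beside it were lower in both. Pdzrn3, on the other side of that desert, was at 4.08, 1.05 and 24.5 CPM in TKO, 93.0 to 189 CPM in CARM1 knockout and 62.2 to 130 CPM in NFIB mutant libraries, opposite to the peak. Its call in NFIB mutant tumors was lost without TKO 1 (adjusted p = 0.1004). Tenm2, a synaptic adhesion protein, was at 9.85, 20.3 and 9.97 CPM in TKO and at most 0.127 CPM in the mutants, with 32 of 38 peaks called lower in both. Members that rose included the secreted guidance cues Slit2 and Slit3. Slit3 was at or under 3 counts in TKO, 57.1 to 362 CPM in CARM1 knockout and 55.9 to 933 CPM in NFIB mutant libraries, with 9 and 11 of 13 peaks called higher. Epha7 rose with 23 of 25 peaks, although CARM1 knockout ran from 3.03 to 21.1 CPM and NFIB mutant from 0.699 to 24.6 CPM.

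The 6 flanking factors of endoderm and epithelium had 62 peaks, of which 53.2% rose and 24.2% fell in CARM1 knockout and 59.7 and 22.6% in NFIB mutant. Of the 4 tested genes, 1 was called higher and 1 lower in each mutant. Gata6, the one that rose, was at 0.913, 1.01 and 6.12 CPM in TKO, 64.2, 29.8 and 41.4 CPM in CARM1 knockout and 41.0, 53.8 and 71.9 CPM in NFIB mutant libraries, with 9 and 10 of its 12 peaks called higher.

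Of the 12 developmental genes with the most desert peaks beside them, Foxp1, Sox9, Opcml, Maf, Nrg1 and Zfhx3 were not called in either mutant, and their deserts held calls in both directions. Foxp1, a forkhead factor, was at 208, 292 and 80.2 CPM in TKO, 161 to 308 CPM in CARM1 knockout and 115 to 217 CPM in NFIB mutant libraries, while 39 of its 80 tested peaks rose and 19 fell in CARM1 knockout. Sox9 was at 3.65, 14.3 and 45.9 CPM in TKO and 17.9 to 30.4 CPM in the mutants, and of 72 peaks 28 rose and 24 fell in CARM1 knockout. Without TKO 3, Sox9 was called higher in CARM1 knockout (adjusted p = 0.0833), and Nrg1 in both mutants (0.0201 and 0.0213). Opcml, an adhesion molecule of neurons, had 49 of 65 peaks called lower in both mutants. Sox5 fell, from 31.0, 16.5 and 84.4 CPM in TKO to 7.82 to 9.02 CPM in CARM1 knockout and 10.8 to 12.8 CPM in NFIB mutant libraries (log2 fold change -2.38 ± 0.54 and -1.92 ± 0.53, adjusted p = 0.0137 and 0.0229), with 35 and 36 of 56 peaks called lower. Nfib itself fell, from 420, 580 and 571 CPM in TKO to 74.5, 216 and 87.3 CPM in CARM1 knockout and 105, 83.3 and 91.4 CPM in NFIB mutant libraries (-2.06 ± 0.40 and -2.49 ± 0.41, adjusted p = 0.00799 and 0.00325). Its 52 tested desert peaks were called higher in 14 and lower in 20 cases in CARM1 knockout, and in 16 and 18 in NFIB mutant tumors. Zeb2, a repressor of epithelial genes, was called higher in CARM1 knockout (log2 fold change 1.68 ± 0.61, adjusted p = 0.0657), with 36 of 51 peaks higher and 9 lower. That call was lost without TKO 1, TKO 2, CARM1 knockout 1 or CARM1 knockout 3 (0.114, 0.168, 0.148 and 0.123), and one in NFIB mutant tumors was gained without TKO 3 (0.0117). Ntm and Tenm4, both neuronal adhesion proteins, were called lower in NFIB mutant tumors and not in CARM1 knockout. The Ntm call was lost without any of the 3 NFIB mutant libraries (adjusted p = 0.115 to 0.133). Tenm4 was at 145, 142 and 55.6 CPM in TKO, 10.2, 59.4 and 66.4 CPM in CARM1 knockout and 9.12, 14.6 and 0.826 CPM in NFIB mutant libraries (-3.80 ± 1.07, adjusted p = 0.0239), with 33 of 46 peaks lower in both, and its call was lost against TKO 3 alone (0.192).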

How the data were processed

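ATAC-seq and RNA-seq counts of 9 libraries each were used, with groups from the sample labels; count columns headed C, KO and N were read as TKO, CARM1 knockout and NFIB mutant after the names in the study, which the column headings alone do not settle. For ATAC-seq the authors mapped reads with Bowtie2, removed duplicates and called peaks (MACS2 in the methods, Genrich in the submitters' processing notes). Their methods state that regions with a likely change in copy number were left out. They deposited raw counts on 1 merged peak set, made with featureCounts 1.6.3 per the file header, and this set still holds the long peaks near Mycn. For RNA-seq the authors deposited raw htseq-count gene counts after mapping with HISAT2. Their 5 summary rows were left out, which held 18.3 to 21.2% of the reads in TKO and 11.6 to 13.4% in the mutant libraries.

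Distances ran from the peak's middle to the 20807 protein-coding gene starts of the GENCODE vM21 annotation of GRCm38. Both tables were fitted whole, with all 9 libraries, TMM factors, filterByExpr and edgeR's robust quasi-likelihood test (edgeR 4.0.16, limma 3.58.1, DESeq2 1.42.0 as the alternative, R 4.3.3; Python 3.11.15, pandas 2.3.3, scipy 1.17.1, pysam 0.24.0), with Benjamini-Hochberg adjustment over all 111116 peaks or 15514 genes tested. The fits were also run on simulated data with 200 features changed in CARM1 knockout alone. That is far fewer than were called here, so the run does not cover changes of this extent. The edgeR p-values set a difference against the spread between libraries of the same genotype, with 1 estimate shared by the 3 genotypes. The limits given for low counts cover counting error only, whereas the SEs come from the edgeR test and include the spread between libraries.

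Named peaks were the 6 largest rises and 6 largest falls called in both mutants, without overlap, at a mean of at least 3 log2 CPM and at most 1 per desert; falls within 1000000 bp of Mycn were taken apart. Named clusters were the 6 with the most peaks and 3 at either end of the medians. Named genes were those flanking them and the 12 developmental genes with the most desert peaks; any other gene was chosen after its values were seen. Some peaks and genes that these rules name are not reported here. The members and lists were chosen with earlier results of these data known. Motifs were searched as letters in the 300 bp at the middle of each peak.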

Additional observations from a re-analysis of the deposited data

How the results depend on the processing

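The replicate numbers did not pair the libraries, since same-numbered ATAC-seq libraries correlated at -0.142 to 0.118 and RNA-seq libraries at -0.297 to 0.118. With the replicate number as a block, 4393 gene desert peaks rose and 4363 fell in CARM1 knockout, and 4281 and 4530 in NFIB mutant tumors. For flanking genes the blocked counts were 251 and 253, and 268 and 354.

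Requiring at least 10 counts in every library left 1165 peaks that rose and 1047 that fell in CARM1 knockout and 1166 and 1056 in NFIB mutant (3150 tested), and 169 and 155, and 185 and 188, genes (843 tested). With a limit of 100000 bp the counts were 9962 and 9329, and 9992 and 9573, with 500000 bp 866 and 868, and 846 and 888, and with starts of genes of every biotype 302 and 405, and 289 and 411. With at least 10 counts and with 100000 bp, higher calls outnumbered lower ones in both mutants, unlike in the values reported, and the cause was not tested. Between the mutants 1 peak was called with library totals, at least 10 counts in every library, only the genotypes compared, or TKO represented by replicate 3 alone, while DESeq2 called 115 peaks and 66 genes. Counting clusters of at least 10 peaks gave 236. The share of counts differed by -2.76 points (exact permutation p = 0.0238) without peaks holding over 0.5% of a library, and by -0.134 points (p = 0.0476) beyond 500000 bp.

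Leaving out 1 library at a time gave 4090 to 4642 higher and 4329 to 4688 lower peaks in CARM1 knockout, 3993 to 4525 and 4468 to 4763 in NFIB mutant, and 0 to 5 between them. It gave 225 to 315 and 192 to 330 genes in CARM1 knockout, 254 to 323 and 317 to 409 in NFIB mutant, and 0 between them, and a share difference of -4.23 to -2.05 points. Against TKO 3 alone the direction turned for Rps24 (log2 fold change 1.30 in CARM1 knockout, 1.35 in NFIB mutant) and Nbas (0.14 in CARM1 knockout). In CARM1 knockout it also turned with 1 library left out for Kcna4 (-1.43 to 9.22, the latter without TKO 3) and Epha4 (-2.77 to 0.84, the former without CARM1 knockout 2), and the cause was not tested. Calls lost against TKO 3 alone are given above for some genes only. Epha7, Sox2, Sox11 and Nkx6-1 also lost a call in that setting, with the direction unchanged.

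The gene desert median in CARM1 knockout stayed above 0 with DESeq2 size factors (0.06), library totals (0.78) and start-site peaks of steady genes (0.60), and was below 0 with the GC offset (-0.23), the DESeq2 Wald test, which used no filter (-0.14), and without CARM1 knockout 2 (-0.13). In NFIB mutant tumors these settings other than the last gave -0.05, 0.67, 0.56, -0.28 and -0.22, and leaving out any 1 mutant library gave -0.16 to -0.01. Relative to the main fit, the median of all peaks moved by -0.18 and -0.15 with DESeq2 size factors, 0.57 and 0.57 with library totals, 0.37 and 0.45 with start-site peaks of steady genes and 0.13 and 0.15 with an offset for GC content. The gene desert median minus that of all peaks was 0.02 and -0.12 as reported, and -0.57 and -0.65 with the GC offset. With the GC offset 3528 peaks rose and 4596 fell in CARM1 knockout, and 3501 and 4674 in NFIB mutant. The fits without the Mycn region for shares and clusters and against TKO 3 alone were chosen after seeing the data. With 3 libraries a side, 1 animal can set a call, and peaks under about 1 CPM are read from few counts.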
